A study of Mus musculus with 4 samples.

Results

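The core autophagy machinery was taken as 40 mouse genes that act in order from the start of autophagosome formation to the lysosome. They were listed by their role in the pathway, and the rows were found by the Entrez gene identifiers that map to their symbols. All 40 had a row among the 24415 deposited rows, and all 40 were among the 14043 rows that passed the filter on low counts and were tested. RNA came from mouse bone marrow after microbead selection for CD117, the KIT receptor carried by hematopoietic stem and progenitor cells. One group was wild type and the other carried an inducible HIF-1α, which the series describes as constitutively active. HIF-1α is the oxygen-regulated subunit of a transcription factor that switches on genes of the hypoxia response. Each genotype had 2 libraries of 22221798 to 27539149 counts, and both genotypes had the strain background C57BL/6, 129X1/SvJ. The sources used here do not give age, sex, the promoter that drives the induced protein, the inducing agent, the time after induction, or whether the libraries of a genotype came from separate mice. The p-values therefore set the difference between genotypes only against the spread of these libraries within a genotype, and that spread may be technical.

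Autophagy encloses cytoplasm in a double membrane and delivers it to the lysosome. The ULK1 kinase complex starts the process, a class III PI3-kinase complex marks the forming membrane with the lipid PI3P, and ATG9 and ATG2 proteins supply it with lipid. Ubiquitin-like conjugation then attaches ATG8 proteins (the LC3 and GABARAP families) to the membrane, where they hold cargo receptors. In blood formation autophagy is known for maintaining stem cells and for clearing mitochondria from maturing red cells. The comparison sets transcript levels of this machinery in inducible HIF-1α cells against those in wild type. Levels are given as CPM (library counts scaled to a common total with TMM library sizes).

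None of the 40 genes was called higher or lower in the inducible HIF-1α libraries. Over all tested genes 1.12% were called (0.114% higher and 1% lower; edgeR quasi-likelihood test, Benjamini-Hochberg adjusted p under 0.05), so a count of 0 among 40 genes lies near the background. Without adjustment 4 of the 40 had a p under 0.05, namely Tfeb, Gabarap, Atg2b and Atg16l2, against 16.9% of all tested genes, and other tools and settings called up to 10. The median log2 fold change of the 40 was -0.10, beside 0.00 over all tested genes, with 14 positive and 26 negative values. For 17 of the 40 the libraries of the genotypes did not overlap, 3 of them higher and 14 lower in inducible HIF-1α, beside 52.7% of all tested genes (24.6% higher and 28.2% lower).

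The 95% interval of the log2 fold change lay within -1 and 1 for 31 of the 40 genes, against 45.6% of all tested genes. The width of an interval depends on the counts, and the comparison was not matched for level. At least 1 CPM in all 4 libraries was reached by 39 of the 40, and by 11699 genes in all, where 14043 were tested. The interval reached below -1 for 7 genes (Tfeb, Map1lc3a, Gabarap, Atg16l2, Atg7, Atg101 and Atg10) and above 1 for Atg2b and Gabarapl1. These intervals are not adjusted for the number of genes. For 25 of the 40 genes the 2 inducible HIF-1α libraries lay further from each other than the genotype means did, as for 53.3% of all tested genes. The median absolute log2 difference was 0.29 between the inducible HIF-1α libraries, 0.14 between the wild-type libraries and 0.21 between the genotype means.

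**Figure D1:**
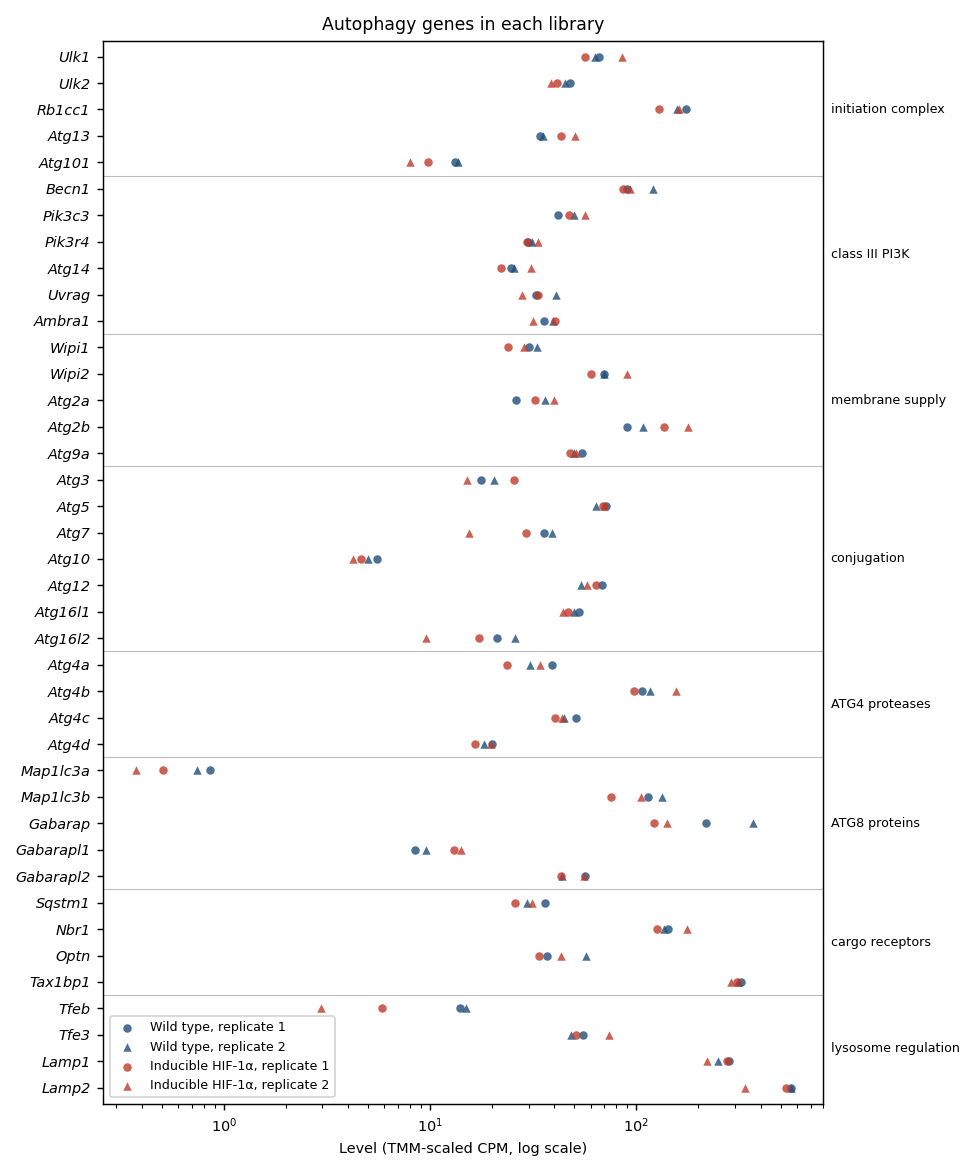
Level of each of the 40 autophagy genes in each library, in CPM scaled by TMM library size on a log axis, ordered by step from initiation to the lysosome. Circles are replicate 1 and triangles replicate 2, blue is wild type and red inducible HIF-1α. For most genes the 4 points lie close together, while Tfeb and Gabarap show the red points below the blue ones and Atg2b shows them above.

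Promoter sequences are shown for Tfeb, Gabarap and Atg2b, the members with the smallest p-values, and for Lamp1, which had more ACGTG matches than any other member and was chosen after its matches were seen. The searched letters were ACGTG and GCGTG, the forms of the core of the HIF binding motif, and CACGTG, the core of the E-box read by TFEB and related factors. Both strands were searched over the 250 bases before the start of the promoter listed first for each gene in GRCm38.p6, and CACGTG contains ACGTG on both strands. That start is not always the outer end of the annotated gene, so some windows lie partly or wholly inside it. The Atg2b window runs into its gene, which ends at 105685297, and its ACGTG lies in that inner part. The Atg7 window (114670846 to 114671095) lies inside its gene, which starts at 114643127. The windows are chr17:47736787-47737036 (plus strand) for Tfeb, chr11:69991120-69991369 (plus strand) for Gabarap, chr12:105685242-105685491 (minus strand) for Atg2b and chr8:13158911-13159160 (plus strand) for Lamp1. Each is printed 5′ to 3′ along its gene, and capitals mark ACGTG or GCGTG on either strand.
Tfeb: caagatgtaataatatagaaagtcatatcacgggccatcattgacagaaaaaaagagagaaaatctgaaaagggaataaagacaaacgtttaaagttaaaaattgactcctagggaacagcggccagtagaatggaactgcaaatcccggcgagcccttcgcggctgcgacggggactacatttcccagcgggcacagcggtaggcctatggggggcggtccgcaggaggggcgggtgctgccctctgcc
Gabarap: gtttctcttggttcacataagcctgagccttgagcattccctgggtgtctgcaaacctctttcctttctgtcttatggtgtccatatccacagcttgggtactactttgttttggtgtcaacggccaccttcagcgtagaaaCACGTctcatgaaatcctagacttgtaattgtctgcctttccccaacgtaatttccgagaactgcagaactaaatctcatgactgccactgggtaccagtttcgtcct
Atg2b: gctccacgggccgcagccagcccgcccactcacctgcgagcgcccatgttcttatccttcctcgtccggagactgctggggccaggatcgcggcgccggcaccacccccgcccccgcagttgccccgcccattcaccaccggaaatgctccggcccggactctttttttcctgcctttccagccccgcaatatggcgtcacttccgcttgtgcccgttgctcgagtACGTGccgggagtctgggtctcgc
Lamp1: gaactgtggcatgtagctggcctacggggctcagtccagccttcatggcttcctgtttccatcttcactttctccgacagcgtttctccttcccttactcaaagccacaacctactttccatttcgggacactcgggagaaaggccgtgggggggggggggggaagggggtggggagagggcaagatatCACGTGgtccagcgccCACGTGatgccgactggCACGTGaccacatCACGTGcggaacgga

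The Tfeb window held neither form, the Gabarap and Atg2b windows held 1 ACGTG each, and the Lamp1 window held 4 CACGTG, each counted as ACGTG on both strands. RefSeq lists 3 promoters for Tfeb, of which the first is shown. Of the 34 members with a listed promoter, 27 (79.4%) held ACGTG or GCGTG, against 43.8% of 17491 promoters of protein-coding genes and 38.6% of 27025 promoters of all genes. CACGTG was in 4 of the 34, against 6.64% of the protein-coding promoters. Atg3 was the 1 member with the longer form TCACGTGA, which 0.803% of the promoters of all genes held. All the searched motifs contain CG, and the groups of promoters were not matched for base content. Among the members the windows ran from 38% GC (Atg4a) to 78% GC (Atg4b). The shares therefore do not show an excess of motifs particular to autophagy genes. A match is a description of the letters and was not tested for binding.

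In the initiation complex no gene was called, the median log2 fold change of its 5 genes was -0.20, and Atg13 and Atg101 lay on opposite sides of zero. Atg101 (Entrez 68118; chromosome 15, 101284301 to 101290947), which encodes a partner that stabilises ATG13, had 13.1 and 13.6 CPM in wild type and 9.76 and 7.97 CPM in inducible HIF-1α. Both inducible HIF-1α libraries lay below both wild-type libraries. The log2 fold change was -0.59 ± 0.27 (SE, adjusted p = 0.322). Atg13 (Entrez 51897; chromosome 2, 91674612 to 91710597), the adaptor that joins the kinase to its scaffold, had 33.9 and 35.3 CPM in wild type and 43.2 and 50.5 CPM in inducible HIF-1α, without overlap. Its log2 fold change was 0.44 ± 0.20 (adjusted p = 0.332). Rb1cc1, which encodes the large scaffold FIP200, had the highest CPM of the complex, with 174 and 157 CPM in wild type and 128 and 160.3 CPM in inducible HIF-1α. Its groups overlapped (-0.20 ± 0.20, adjusted p = 0.642), and its antisense neighbour and a processed pseudogene share sequence with it. The kinase genes Ulk1 and Ulk2 had log2 fold changes of 0.14 and -0.23. Ulk1 had 85.4 CPM in inducible HIF-1α replicate 2 and 56.3 CPM in replicate 1, on either side of its wild-type values of 65.6 and 62.8 CPM.

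The genes of the class III PI3-kinase complex lay around zero. Their median log2 fold change was 0.00 over 6 genes, the values ran from -0.26 to 0.18, and in all 6 the groups overlapped. Becn1 (Entrez 56208), which encodes the Beclin 1 subunit, had 90.2 and 121 CPM in wild type and 86.0 and 92.7 CPM in inducible HIF-1α. This gave a log2 fold change of -0.24 ± 0.21 (adjusted p = 0.598). Over 50.2% of its exon bases the annotation places Cntd1 on the opposite strand, and the sources used here do not say whether the counting used strand. The catalytic subunit gene Pik3c3 had a log2 fold change of 0.18, its regulatory subunit gene Pik3r4 0.05, Atg14, which directs the complex to autophagosomes, 0.07, Uvrag, which directs it to endosomes, -0.26, and the Beclin 1 partner gene Ambra1 -0.06. The adjusted p of these 5 ran from 0.607 (Uvrag) to 0.928 (Pik3r4).

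Among the 5 genes of membrane supply and PI3P reading, Atg2b had the largest value. Atg2b (Entrez 76559; chromosome 12, 105613539 to 105685297), which encodes a lipid transfer protein, had 89.9 and 108 CPM in wild type and 136 and 178 CPM in inducible HIF-1α. Both inducible HIF-1α libraries lay above both wild-type libraries, and the 2 genotypes did not overlap. Wild type averaged 98.7 ± 12.4 CPM and inducible HIF-1α 157 ± 30.0 CPM (SD, n = 2 each). The log2 fold change was 0.67 ± 0.21 (SE, 95% interval 0.16 to 1.18, adjusted p = 0.198). Its paralog Atg2a, with 26.1 and 36.1 CPM in wild type and 32.3 and 39.6 CPM in inducible HIF-1α, overlapped between the genotypes (0.21, adjusted p = 0.703). Of the PI3P-binding proteins, Wipi1 had a log2 fold change of -0.27 and Wipi2 0.11. Atg9a, which encodes the membrane scramblase carried by seed vesicles, had -0.08 and overlapped. Its value is uncertain, because 36.3% of its exon bases are shared with the transcript Gm29253 on the same strand. Atg2b shares 4.98% of its exon bases with Gskip on the opposite strand, and stretches of at least 200 bases with at least 95% identity occur in other annotated transcripts.

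The 7 conjugation enzyme genes had a median of -0.17, and 4 of them (Atg7, Atg10, Atg16l1 and Atg16l2) lay lower in both inducible HIF-1α libraries than in either wild-type library, beside 28.2% of all tested genes. Atg16l2 (Entrez 73683; chromosome 7, 101286325 to 101302267), a paralog of Atg16l1, had 21.1 and 25.7 CPM in wild type and 17.2 and 9.58 CPM in inducible HIF-1α. Atg16l2 had a log2 fold change of -0.81 ± 0.33 (adjusted p = 0.28). Atg7 (Entrez 74244; chromosome 6, 114643127 to 114860604), which encodes the E1-like enzyme that activates ATG12 and the ATG8 proteins, had 35.5 and 39.0 CPM in wild type and 29.2 and 15.5 CPM in inducible HIF-1α. Replicate 2 of inducible HIF-1α was the lowest library for both genes. The log2 fold change of Atg7 was -0.74 ± 0.32 (95% interval -1.50 to 0.02, adjusted p = 0.308). With 1 library left out it ranged from -1.27 to -0.32, and that of Atg16l2 from -1.29 to -0.41, in each case lowest without inducible HIF-1α replicate 1 and highest without replicate 2. Atg5, the partner of ATG12 and the most abundant of these transcripts in CPM, had 71.6 and 63.5 CPM in wild type and 69.0 and 70.0 CPM in inducible HIF-1α, within the spread of wild type (0.04 ± 0.18, adjusted p = 0.928). Atg16l1, which places the conjugation complex on the membrane, had -0.17, Atg12 -0.01, and the E2-like enzyme genes Atg3 and Atg10 had 0.09 and -0.25. Atg3 was highest in inducible HIF-1α replicate 1 (25.6 CPM) and lowest in replicate 2 (15.0 CPM).

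The 4 genes of the ATG4 proteases, which trim ATG8 proteins before conjugation and release them afterwards, had a median of -0.14. Atg4b, the main protease, had 106 and 117 CPM in wild type and 97.5 and 155 CPM in inducible HIF-1α, so the inducible HIF-1α libraries lay on either side of wild type (0.18 ± 0.25, adjusted p = 0.757). Atg4a had 39.1 and 30.5 CPM in wild type and 23.5 and 34.2 CPM in inducible HIF-1α and overlapped as well (-0.27 ± 0.27, adjusted p = 0.641). Its value is uncertain, because the annotation holds a near-identical copy, Atg4a-ps, at 99.3% identity over 2115 bases. Atg4c and Atg4d had log2 fold changes of -0.20 and -0.08, and only Atg4c of the 4 did not overlap between the genotypes.

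Among the ATG8 genes Gabarap had the highest level per length. In wild type it was also the highest of the 40, while in inducible HIF-1α Lamp1 had a higher mean (111 CPM per kilobase). Lamp1 was above Gabarap in inducible HIF-1α replicate 1 (123 and 90.0 CPM per kilobase) but below it in replicate 2 (98.8 and 104). Per kilobase of annotated exon, Gabarap stood at a mean of 217 CPM in wild type, above Gabarapl2 (29.9), Map1lc3b (23.9), Gabarapl1 (4.93) and Map1lc3a (0.718). In inducible HIF-1α the order was the same, with Gabarap at 97.0 CPM per kilobase and then Gabarapl2 (29.4), Map1lc3b (17.4), Gabarapl1 (7.42) and Map1lc3a (0.395). In wild type the neighbours Gabarapl2 (33.7 and 26.0) and Map1lc3b (22.04 and 25.7 CPM per kilobase) nearly met in replicate 2 and differed by less than the replicates of Gabarapl2 did. Both have processed pseudogenes of more than 95% identity to part of the transcript, so their levels are uncertain. Of the summed ATG8 level per kilobase, Gabarap made up 72.4% and 82.6% in wild type but 65.3% and 62.9% in inducible HIF-1α. The share of Gabarapl1 was 2.08% and 1.59% in wild type and 5.17% and 4.66% in inducible HIF-1α.

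Gabarap (Entrez 56486; chromosome 11, 69991370 to 69994949), whose protein binds cargo receptors and the fusion machinery on late autophagosomes, had 216 and 369 CPM in wild type and 122 and 141 CPM in inducible HIF-1α. The wild-type libraries were far apart, but both lay above both inducible HIF-1α libraries. Wild type averaged 293 ± 108 CPM and inducible HIF-1α 131 ± 13.3 CPM (SD, n = 2 each). The log2 fold change was -1.16 ± 0.28 (95% interval -1.82 to -0.50, adjusted p = 0.119). No annotated gene shares exon bases with Gabarap, and no transcript of another gene matched it over 200 bases at 95% identity.

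Map1lc3b (Entrez 67443; chromosome 8, 121590438 to 121598760), the gene of the LC3 protein used as the standard autophagosome marker, had 114 and 133 CPM in wild type and 75.2 and 105 CPM in inducible HIF-1α, without overlap (-0.45 ± 0.22, adjusted p = 0.363). Gabarapl1, with 8.40 and 9.55 CPM in wild type and 13.0 and 14.0 CPM in inducible HIF-1α, was the 1 ATG8 gene that lay higher in both inducible HIF-1α libraries (0.59 ± 0.26, adjusted p = 0.315). It shares 28.3% of its exon bases with the transcript 1700101I11Rik on the opposite strand. Gabarapl2 had a log2 fold change of -0.02 and overlapped. Map1lc3a was close to the limit of these libraries, with 23 and 16 counts in wild type and 13 and 10 counts in inducible HIF-1α, and its interval ran from -2.68 to 0.96.

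**Figure D2:**
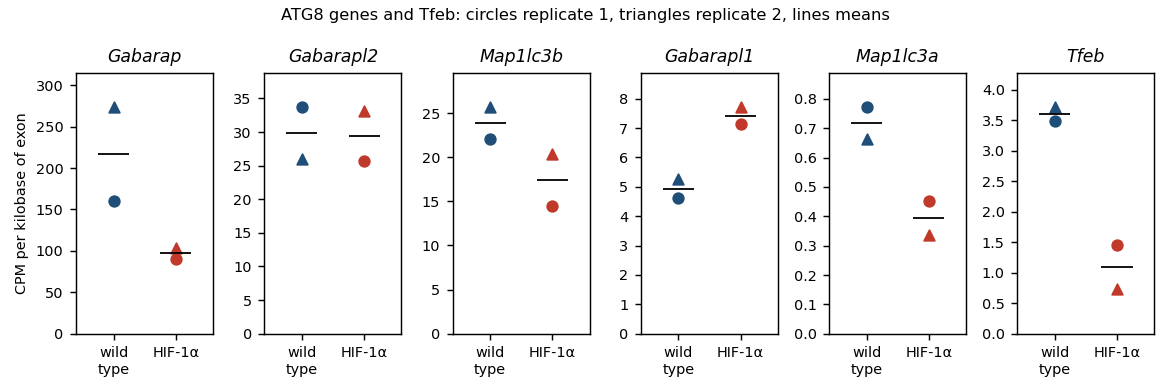
Levels of the 5 ATG8 genes and Tfeb in CPM per kilobase of annotated exon, each panel on its own linear axis from 0. Points are libraries (circles replicate 1, triangles replicate 2), blue is wild type, red is inducible HIF-1α and lines are means of 2 libraries. Gabarap and Tfeb show both red points below both blue points, Gabarapl1 shows them above, and Gabarapl2 shows the same range in both genotypes.

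The cargo receptor genes also lay near zero, with a median log2 fold change of -0.15 and values from -0.28 to 0.12. Tax1bp1, a receptor for ubiquitin-tagged cargo and the most abundant of these transcripts, had 321 and 312 CPM in wild type and 308 and 286 CPM in inducible HIF-1α. These did not overlap but differed by little (-0.09 ± 0.17, 95% interval -0.51 to 0.32, adjusted p = 0.835). Optn, which encodes optineurin, a receptor for damaged mitochondria and bacteria, had 36.6 and 56.6 CPM in wild type and 33.8 and 43.0 CPM in inducible HIF-1α (-0.28 ± 0.27, adjusted p = 0.636). Sqstm1, which encodes p62, had 36.1 and 29.5 CPM in wild type and 25.6 and 31.3 CPM in inducible HIF-1α (-0.20, adjusted p = 0.687), and 20.5% of its exon bases lie opposite Mrnip. Nbr1 had 142 and 136 CPM against 126 and 176 CPM (0.12, adjusted p = 0.815).

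Of the 4 genes of lysosome regulation, Tfeb had the smallest p of all 40. Tfeb (Entrez 21425; chromosome 17, 47737037 to 47792416) encodes a transcription factor that switches on lysosomal and autophagy genes when it enters the nucleus. It had 14.0 and 14.9 CPM in wild type (375 and 323 counts) and 5.85 and 2.96 CPM in inducible HIF-1α (151 and 79 counts). Both inducible HIF-1α libraries lay below both wild-type libraries, and they differed from each other by a factor of 1.98. The wild-type mean of 14.5 ± 0.646 CPM was 3.28 times the inducible HIF-1α mean of 4.40 ± 2.05 CPM (SD, n = 2 each). The log2 fold change was -1.71 ± 0.38 (95% interval -2.63 to -0.80, adjusted p = 0.103). No annotated gene shares exon bases with Tfeb.

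Tfe3, the paralog of Tfeb with overlapping targets, had 55.3 and 48.0 CPM in wild type and 51.1 and 73.3 CPM in inducible HIF-1α and overlapped (0.27 ± 0.24, adjusted p = 0.604). Per kilobase of exon, Tfe3 stood at 14.3 CPM and Tfeb at 3.60 CPM in wild type, and at 17.2 and 1.10 CPM in inducible HIF-1α. Lamp2 (Entrez 16784; chromosome X, 38399647 to 38456460), a lysosomal membrane glycoprotein gene, had 560.2 and 560.4 CPM in wild type and 529 and 338 CPM in inducible HIF-1α. The groups did not overlap, with inducible HIF-1α replicate 2 well below the other 3 libraries (-0.37 ± 0.25, adjusted p = 0.494). With 1 library left out its log2 fold change ranged from -0.73 to -0.05. Lamp1 had 282 and 249.8 CPM in wild type and 274 and 220.2 CPM in inducible HIF-1α and overlapped (-0.10, adjusted p = 0.832).

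**Figure D3:**
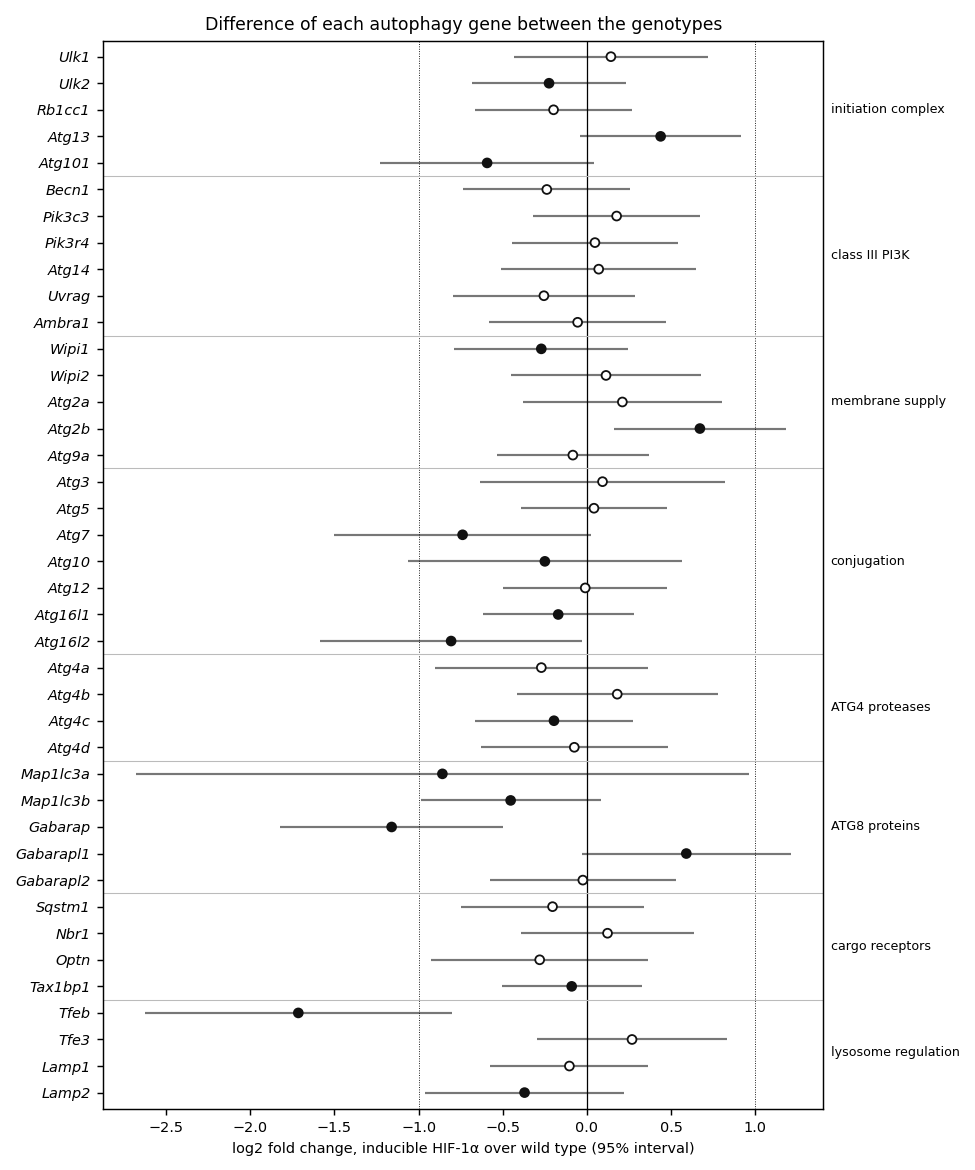
Log2 fold change of each of the 40 autophagy genes (inducible HIF-1α over wild type) with its 95% interval from the edgeR fit, not adjusted for the number of genes. Filled points are genes whose libraries did not overlap between the genotypes, open points are genes that overlapped, and dotted lines mark -1 and 1. The intervals of Tfeb, Gabarap, Atg16l2 and Atg2b lie to 1 side of 0, and no gene passed the adjusted threshold.

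Tfeb and Gabarap were called lower in some other fits. DESeq2 called both (adjusted p = 0.00356 for Tfeb and 0.00483 for Gabarap), where it called 5.69% of all genes lower, and so did the fit with no filter on low counts (0.0161 and 0.0164), where 3.55% were lower. Over the 12 alternatives the adjusted p of Tfeb ran from 1.25e-10 to 0.985 and that of Gabarap from 3.79e-09 to 0.985. The fit with a replicate block, which takes the label number as a term, called Gabarap alone among the 40 (adjusted p = 0.0449, 2.47% of all genes lower).

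The 2 inducible HIF-1α libraries gave different counts when either stood alone against wild type, and a lone library is then assumed to vary like the wild-type pair. Without inducible HIF-1α replicate 1, 4 members were called higher (Atg13, Atg2b, Atg4b and Tfe3) beside 12.4% of all genes, and 6 were called lower (Atg101, Atg7, Atg16l2, Gabarap, Tfeb and Lamp2) beside 19.7%. Without inducible HIF-1α replicate 2, none was called higher and 3 were called lower (Map1lc3b, Gabarap and Tfeb), beside 7.64% of all genes. Gabarap and Tfeb were the members called lower in both. Their log2 fold changes were -1.06 and -2.29 without replicate 1 and -1.23 and -1.27 without replicate 2. No member was called when either wild-type library was left out. The log2 fold change of Gabarap was then -1.48 without wild-type replicate 1 and -0.73 without wild-type replicate 2, and that of Tfeb was -1.74 and -1.67.

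Markers of mature cells also differed between the libraries. The 12 stem and progenitor markers were all detected and none was called, with summed levels of 1002 to 1042 CPM in wild type and 1044 to 1232 CPM in inducible HIF-1α, and Kit stood at 268 and 242 CPM in wild type and 347 and 390.4 CPM in inducible HIF-1α. All 12 B cell markers were lower in both inducible HIF-1α libraries (9 called), with summed levels of 537 to 565 CPM in wild type and 6.36 to 18.3 CPM in inducible HIF-1α and Pax5 at 0 counts in both. Of 14 macrophage and monocyte markers 8 were called lower (summed 1636 to 1646 CPM against 1084 and 453 CPM in replicates 1 and 2). Of 10 mature neutrophil markers 3 were (17696.5 to 19389.7 CPM against 13353 and 5894 CPM). In inducible HIF-1α replicate 2, Cd5l and C1qa of the macrophage list and Blk, Vpreb1, Vpreb3 and Igll1 of the B cell list were also at 0. The 14 erythroid markers had Tfrc called higher and Hba-a1 and Hba-a2 lower, with summed levels of 13011 to 13424 CPM against 6528 and 12663 CPM. The sum joins markers that moved in opposite directions. Without overlap 5 lay higher (Klf1, Gata1, Tfrc, Ermap and Rhag), beside 24.6% of all tested genes. Another 7 lay lower (Hbb-bs, Hbb-bt, Hba-a1, Hba-a2, Slc4a1, Epb42 and Alas2), beside 28.2%. The rows of Hba-a1 and Hba-a2 hold identical counts, so they are 1 measurement, and its call (adjusted p = 0.0434) was lost under both other scalings. The call was also lost with at least 1 CPM in all 4 libraries, with the 10 most abundant genes left out, and without either wild-type library. Of 8 T and NK cell markers 2 were called lower, of 6 megakaryocyte and platelet markers 1, and of 6 neutrophil primary granule markers none. The primary granule markers summed to 3406 and 3663 CPM in wild type. In inducible HIF-1α they summed to 3568 CPM in replicate 1 and 1515 CPM in replicate 2. Without wild-type replicate 1 edgeR called 2 genes in all, the B cell markers Ms4a1 and Spib, and without wild-type replicate 2 it called none (703 genes at an unadjusted p under 0.05). In bulk libraries fewer cells of a type and less RNA per cell cannot be told apart. Tfeb, Atg7, Atg16l2 and Lamp2, like the summed macrophage and monocyte markers and the summed neutrophil markers, were lowest in inducible HIF-1α replicate 2. Most members had the other order. Of the 40, 15 were higher in inducible HIF-1α replicate 1 than in replicate 2, beside 50.4% of all tested genes. The other 25, Gabarap and Map1lc3b among them, were lower in replicate 1. The part of macrophages, monocytes and neutrophils in the values was not tested. In inducible HIF-1α the largest terms of the macrophage and monocyte sum were Ccr2 (510 and 247 CPM), Ly6c2 (393 and 118 CPM) and Vcam1 (126 and 56.2 CPM). Adgre1 (3.25 and 2.17 CPM) and Axl (4.92 and 4.23 CPM) were low in both libraries, and Cd68 and C1qc were higher in replicate 2.

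Other genes of the pathway were described from lists chosen by role. Of 20 other autophagosome genes none was called (median -0.15), and the smallest p belonged to Trp53inp2, which encodes a protein that brings ATG8 proteins to the membrane. It had 193 and 225 CPM in wild type and 96.1 and 60.3 CPM in inducible HIF-1α (-1.42 ± 0.26, adjusted p = 0.067). Of 14 genes of fusion with the lysosome 13 were tested and none was called (median -0.08). Stx7, a SNARE gene of late endosomes, had the smallest p, with 126 and 107 CPM in wild type and 81.7 and 49.0 CPM in inducible HIF-1α (-0.83 ± 0.27, adjusted p = 0.205).

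Of 31 mTORC1 and AMPK regulators, which set autophagy by nutrient and energy state, none was called (median 0.11). Rragd, a Rag GTPase gene that TFEB is known to control, had 5.78 and 6.65 CPM in wild type and 1.70 and 1.83 CPM in inducible HIF-1α (-1.81 ± 0.38, adjusted p = 0.0886). Of 6 other TFE family and FOXO factor genes 1 was called. Foxo1, a forkhead factor that is high in B cells and controls autophagy genes, fell from 47.5 and 49.3 CPM to 13.8 and 13.7 CPM (-1.81 ± 0.21, adjusted p = 0.017). It was not called without wild-type replicate 1 or without replicate 2 (adjusted p up to 0.551). B cell markers were lower in the same libraries, and their part in the Foxo1 value was not tested. Foxo3, the member best known in stem cells, had 0.37 (adjusted p = 0.53) and overlapped.

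Of 34 lysosomal hydrolase and related genes 1 was called lower and none higher, 24 were negative, 18 lay lower in both inducible HIF-1α libraries and the median was -0.32. Over all tested genes 1% were called lower, 49.9% were negative and 28.2% lay lower without overlap. Leaving out inducible HIF-1α replicate 1 gave a median of -0.54, and leaving out replicate 2 gave a median of -0.19. The called gene was Lgmn, the asparaginyl protease legumain, which fell from 15.8 and 16.8 CPM to 3.91 and 3.37 CPM (-2.16 ± 0.28, adjusted p = 0.0236), and it was not called when either wild-type library was left out (adjusted p up to 0.596). Of 16 vacuolar ATPase subunit genes, whose pump acidifies the lysosome, none was called and the median was -0.36. Of these 15 were negative, beside 49.9% of all tested genes, and 11 lay lower in both inducible HIF-1α libraries, beside 28.2%. The median of the vacuolar ATPase genes was -0.42 without inducible HIF-1α replicate 1 and -0.28 without replicate 2. Atp6v0c had the smallest p, with 538 and 718 CPM in wild type and 332 and 357 CPM in inducible HIF-1α (-0.87 ± 0.21, adjusted p = 0.123). Summed levels of the hydrolase list were 3029 and 3166 CPM in wild type and 2427 and 1908 CPM in inducible HIF-1α. The inducible HIF-1α libraries had the same order in the summed markers of every cell type list except the erythroid list. The order was therefore not particular to the macrophage and monocyte sums, where Ccr2, Ly6c2 and Vcam1 were the largest terms. The part of macrophages and monocytes in the hydrolase values was not tested.

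Of 8 mitophagy receptor genes Bnip3 was the 1 called. It rose from 26.4 and 27.9 CPM to 90.7 and 94.5 CPM (1.77 ± 0.19, adjusted p = 0.0169) and it too was not called when either wild-type library was left out (adjusted p up to 0.551). Its libraries were close within each genotype, while Tfeb, with a log2 fold change of similar size, spread more in inducible HIF-1α. Its relative Bnip3l, known for mitochondrial clearance in red cell precursors, overlapped between the genotypes (0.26, adjusted p = 0.584).

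**Figure D4:**
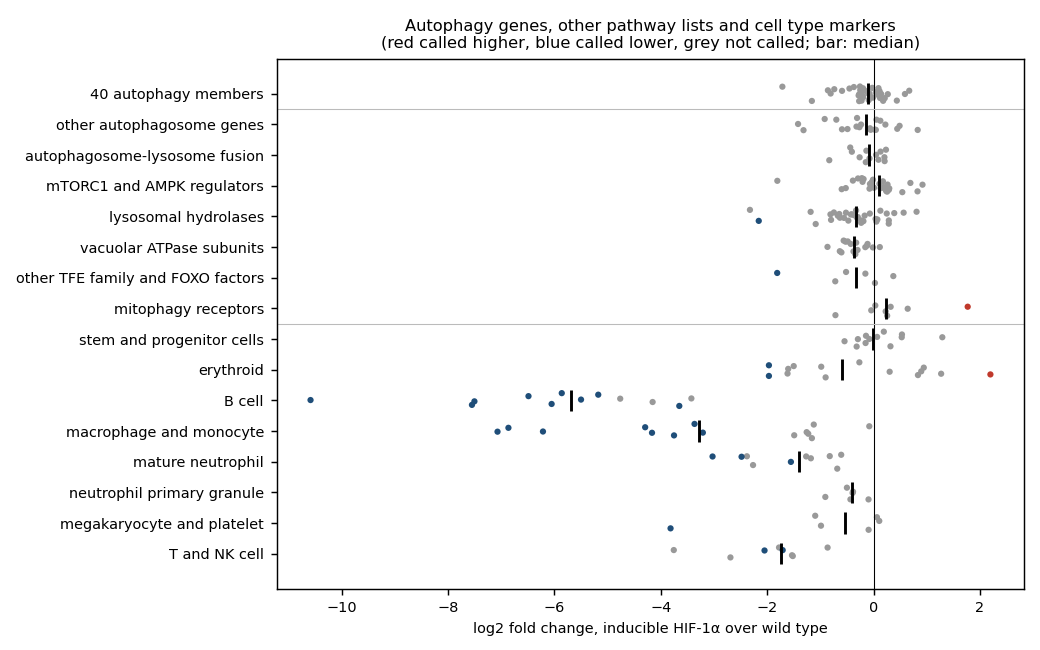
Log2 fold change (inducible HIF-1α over wild type) of the tested genes of each list, with 1 point per gene and a bar at the list's median. Red points were called higher, blue points lower and grey points were not called (edgeR, adjusted p under 0.05). The 40 autophagy genes are centred at -0.10 with no called gene, the vacuolar ATPase genes at -0.36, and the B cell and macrophage markers lie far to the left.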

How the data were processed

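RNA sequencing was done on 4 libraries. The deposited table holds raw counts per Entrez gene, 1 column per library, matched to its sample by the library name in the labels. The authors' software, per the submitters' processing notes, included TopHat, edgeR, CASAVA 1.8 and bcl2fastq, with build mm10. The sources used here do not give the counter, its annotation, its strand setting or its treatment of multi-mapped reads. Symbols, coordinates and promoters came from RefSeq tables of GRCm38.p6, the assembly of mm10, and exon lengths (the union over basic transcripts) and overlaps from GENCODE M21.

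Genes were filtered with filterByExpr (minimum count 10), scaled by TMM and tested with edgeR 4.0.16 (glmQLFit, glmQLFTest) in R 4.3.3 over all genes, with Benjamini-Hochberg adjustment at 0.05. The steps were tested on simulated data. CPM use TMM library sizes and carry SDs over 2 libraries. The SE is the log2 fold change divided by the square root of F. A count of 0 allows up to 3 counts, or 0.112 to 0.138 CPM per library, and this limit covers counting error only. The pairs of libraries differed by a chi-square of 22.1 (wild type) and 112 (inducible HIF-1α) per degree of freedom, so none was a copy of another. Differences between single libraries were taken on log2(CPM + 0.5).

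The members and lists were chosen with earlier results of these data known. Values by library are given for members called under any alternative without overlap between the groups, and for the member with the smallest p and the most abundant member of each step, and others were added after their values were seen. Of the other lists called genes, or else the gene with the smallest p, are named, and Foxo3 and Bnip3l were added. Alternatives were other scalings, filters and tools (DESeq2 1.42.0, limma-voom 3.58.1), a replicate block, and leaving out the 10 most abundant genes or each library. No set test was run.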

Additional observations from a re-analysis of the deposited data

How the results depend on the processing

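The count of genes called in all moved from 157 to 97 with total count scaling, 747 with no filter on low counts, 78 with at least 1 CPM in all 4 libraries (a filter that left Map1lc3a untested), 971 with DESeq2 and 381 with a replicate block, and ranged from 0 to 4669 when 1 library was left out. Without wild-type replicate 2, where edgeR called 0 genes, 703 had an unadjusted p under 0.05. The count of autophagy genes called lower was 2 with no filter, 2 with DESeq2 and 1 with the replicate block, and ranged from 0 to 6 when 1 library was left out, and the count called higher ranged from 0 to 4. The median of the 40 genes was -0.021 with total count scaling, which moved the median of all genes to 0.076. Among the markers, DESeq2 called 11 of the macrophage list and 7 of the mature neutrophil list lower, and limma-voom 4 and 5.

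No member was called with limma-voom, size factors of the DESeq2 type or the other scalings. Of 319 fits of single members under other scalings, filters and tools, 309 kept their direction and side of the threshold. Those that changed sign were Ambra1 (0.021), Atg12 (0.066) and Gabarapl2 (0.048) with total count scaling, and Atg12 with no filter (0.0046) and with the 10 most abundant genes left out (0.0064). When 1 library was left out, 19 of 160 changed sign, and the log2 fold changes of the genes concerned ranged from -0.15 to 0.41 for Ulk1, -0.012 to 0.13 for Pik3r4, -0.15 to 0.29 for Atg14, -0.24 to 0.15 for Ambra1, -0.17 to 0.37 for Wipi2, -0.34 to 0.46 for Atg3, -0.045 to 0.15 for Atg5, -0.17 to 0.18 for Atg12, -0.16 to 0.47 for Atg4b, -0.18 to 0.046 for Atg4d, -0.20 to 0.19 for Gabarapl2, -0.10 to 0.34 for Nbr1, -0.55 to 0.064 for Optn and -0.27 to 0.081 for Lamp1. The cause of these changes was not tested.

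The deviations of same-numbered libraries from their group means had a correlation of 0.0774 across genes, so the numbers were not taken to pair the libraries. With 2 libraries per genotype, and inducible HIF-1α libraries that had a biological coefficient of variation of 33.4% against 15.1% for wild type, a gene that was not called is not shown to be level. Map1lc3a, at 10 to 23 counts per library, is limited by depth.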
